A study of Mus musculus with 2 samples.

Results

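The proteasome genes of the mouse line CH12.LX, which derives from a B-cell lymphoma, were taken as the protein-coding genes whose symbol begins with Psma, Psmb, Psmc, Psmd, Psme or Psmg and ends in a number, with or without a closing a or b. This rule found 48 of 43346 genes, or 48 of the 21474 protein-coding genes, in the gene tables made with annotation release M4. It covers the subunits of the core particle and of the regulatory particle, the activators and the assembly chaperones, and no measured value entered it. Both libraries are total RNA from the same line, named biological replicates 1 and 2 in the labels, with no treatment, genotype or time point, and each has its own biosample record. The strain of origin is given as B10.H-2aH-4bp/Wts, the sex as female and the age as unknown. All values come from this 1 immortalized line and describe it, not B cells at large. Summed over genes, replicate 1 held 49278383 expected counts and replicate 2 held 55950529.

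The proteasome degrades proteins that carry chains of ubiquitin. Its core particle is a barrel of alpha and beta rings with the catalytic sites inside, and the regulatory particle on its end holds ATPases, which unfold the substrate and feed it in, and a lid, which removes the ubiquitin. In lymphoid cells, and elsewhere after interferon, the catalytic subunits Psmb8, Psmb9 and Psmb10 take the places of Psmb5, Psmb6 and Psmb7 in newly built cores, and the resulting immunoproteasome is known for producing peptides that MHC class I molecules present.

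Of the 48 genes, 46 were detected, meaning at least 1 TPM (the unit of level in these tables, which accounts for transcript length and for depth) in each library, and 43 reached 10 TPM in each. The 2 genes not detected were Psma8, the testis form of an alpha subunit, and Psmb11, the catalytic subunit of thymic cortical epithelium, both with 0 counts in both libraries. A count of 0 allows, at 3 counts, up to 0.0177 and 0.0163 TPM in replicates 1 and 2 for Psma8, and up to 0.00664 and 0.00609 TPM for Psmb11, and these limits cover counting error only. The median of the detected members was 69.2 and 54.9 TPM in replicates 1 and 2, against 6.70 and 6.63 TPM for the 8895 detected protein-coding genes. The top 10% of all protein-coding genes by mean TPM held 40 of the 48 members. Together the members made up 1.38% of protein-coding TPM in replicate 1 and 1.20% in replicate 2.

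Levels differed by place in the complex, as the plot of TPM by role shows. The 17 detected genes of the core particle had a median of 96.0 and 81.6 TPM in replicates 1 and 2. The 17 of the regulatory particle had medians of 47.4 and 38.0 TPM. The base assembly chaperones were lower, with medians of 11.6 and 11.5 TPM. Across the 46 detected members the mean TPM had a Spearman correlation of -0.48 with the effective length, a description across genes that share both libraries.

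**Figure D1:**
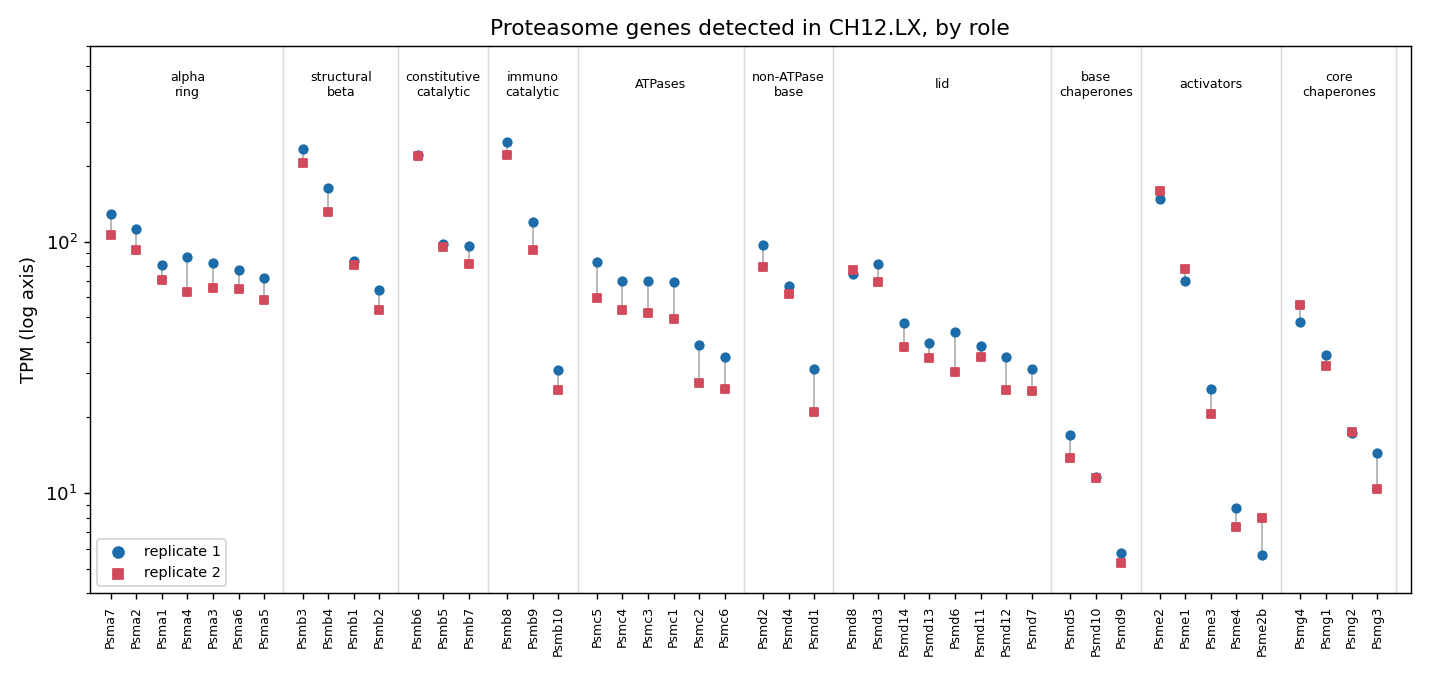
Level of each detected proteasome gene in TPM on a log axis, with a circle for replicate 1, a square for replicate 2 and a line joining them, and genes grouped by role and ordered by mean level. Psmb8, Psmb6 and Psmb3 have the highest means, Psmd9 has the lowest, and the ATPases are all lower in replicate 2.

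Psmb8, which replaces Psmb5 and carries the chymotrypsin-like activity of the immunoproteasome, had the highest mean of all members. It stood at 248 and 220 TPM in replicates 1 and 2, a mean of 234 ± 19.4 TPM (SD, n = 2). Next came Psmb6, the caspase-like subunit of the constitutive core, at 221 and 219 TPM, and Psmb3, a structural beta subunit, at 234 and 206 TPM. Psmb8 stood above Psmb3 in both libraries with separate credibility bounds, as deposited, but its bounds in replicate 2, 216 to 223 TPM, overlapped those of Psmb6, 214 to 221 TPM. Psmb6 was below Psmb3 in replicate 1 and above it in replicate 2. The level of Psmb8, and so its rank, rests on how its reads were divided among its transcripts, given below.

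Psmb9, which replaces Psmb6, was measured at 120 and 92.4 TPM in replicates 1 and 2. Psmb10, which replaces the trypsin-like subunit Psmb7, was the lowest of the 6 paired catalytic genes, at 31.0 and 25.7 TPM. The constitutive Psmb5 was at 97.5 and 95.4 TPM and Psmb7 at 96.0 and 81.6 TPM. Thus 1 immunoproteasome gene stood above its counterpart and the other 2 stood below, in both libraries.

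Within each library the ratio of Psmb8 to Psmb5 was 2.54 in replicate 1 and 2.31 in replicate 2, or 2.43 ± 0.164 (SD, n = 2). For Psmb9 to Psmb6 the ratio was 0.542 and 0.423, or 0.482 ± 0.0841. For Psmb10 to Psmb7 it was 0.323 and 0.315, or 0.319 ± 0.00536. In every pair the distance from 1 was larger than the spread between the libraries, and the credibility bounds of the 2 genes of a pair did not overlap in either library. With 2 libraries of 1 group these within-library ratios have no test. The 3 immunoproteasome genes summed to 399 and 339 TPM in replicates 1 and 2, and the 3 constitutive genes to 415 and 396 TPM. The immunoproteasome share of catalytic TPM was therefore 49.0% in replicate 1 and 46.1% in replicate 2, or 47.6 ± 2.05% (SD, n = 2). The bar plot of the catalytic pairs gives these values side by side.

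**Figure D2:**
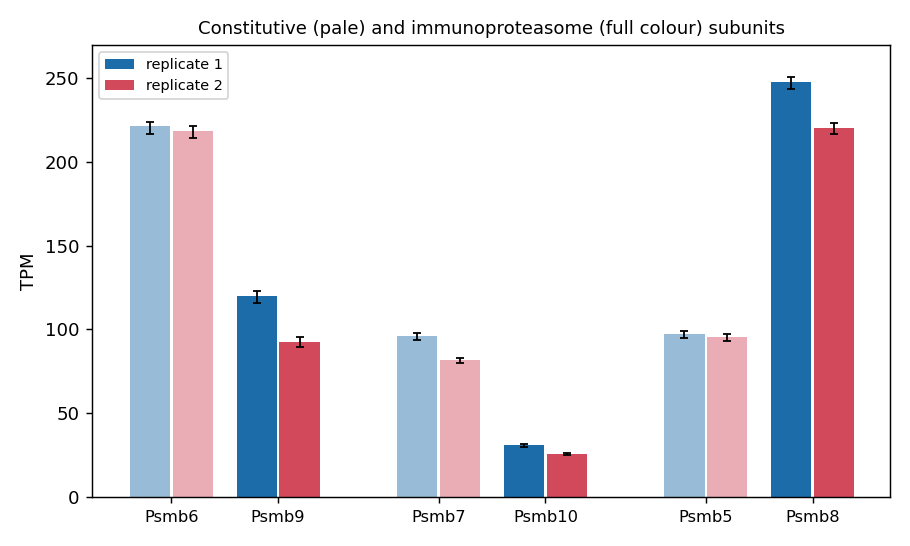
TPM of each catalytic beta subunit gene in replicate 1 (blue) and replicate 2 (red), with constitutive genes in pale bars and their immunoproteasome counterparts in full colour, and error bars for the deposited credibility bounds. Psmb8 stands above Psmb5, while Psmb9 stands below Psmb6 and Psmb10 below Psmb7 in both libraries.

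The members of a pair are related but not alike in sequence, which bears on whether reads could be shared between them. Over aligned coding bases Psmb8 and Psmb5 were 68.1% identical with a longest identical run of 18 bases. Psmb9 and Psmb6 were 65.3% identical with a longest run of 11 bases, and Psmb10 and Psmb7 63.7% with a longest run of 15 bases. The processed pseudogenes Psmb5-ps, Psmb6-ps and Psmb6-ps2 had 0 counts in both libraries, and Psmb7-ps2 had 0 and 0.02 TPM in replicates 1 and 2. Expected counts were whole numbers (within 0.005) in both libraries for 36 of the 46 detected members, and Psmb5 was the only catalytic gene among the 10 with a fractional count.

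Psmb8 and Psmb9 lie beside the peptide transporter genes on chromosome 17 of mm10, in the MHC class II region. Psmb9 (chr17:34181987-34187764, minus strand) overlapped Tap1 (chr17:34187553-34197225, plus strand) by 212 bases, and Psmb8 (chr17:34197721-34201454, plus strand) began 495 bases after Tap1. Whether reads were counted by strand is not given in the sources used here, so reads of this overlap cannot be assigned to Psmb9 or Tap1 with certainty. Psmb10 (chr8:105935735-105938444) lies elsewhere. Psmb5 (chr14:54614119-54618022) lies 3410 bases from the undetected Psmb11, and Psme1 5911 bases from Psme2, also on chromosome 14. The 48 members spread over 16 chromosomes, with 9 on chromosome 11 and 6 on chromosome 14.

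The sequence before the start of the catalytic genes is shown because the constitutive and immunoproteasome genes are known to be under different transcription factors, Nfe2l1 through antioxidant response elements on one side and the interferon-induced Irf1 on the other. RefSeq windows on GRCm38.p6 were matched by symbol for 40 of the 48 members and for 27025 genes in all, and the 250 bases before the start were searched on both strands. A gene counted as holding a motif if any of its windows did, and the 27025 genes were not limited to protein-coding or detected genes. The antioxidant response core TGACNNNGC was present in 5 of the 40 members (12.5%), namely Psmb5, Psmb6, Psmc6, Psmd9 and Psmd12, against 11.5% of all genes. The 2 constitutive catalytic genes with a window, Psmb5 (chr14:54618023-54618245, minus strand) and Psmb6 (chr11:70525107-70525356, plus strand), both held it near the start, and capitals mark it in the stretches free of annotated exons printed here with that of Psmb10 (chr8:105938445-105938642, minus strand).
Psmb5: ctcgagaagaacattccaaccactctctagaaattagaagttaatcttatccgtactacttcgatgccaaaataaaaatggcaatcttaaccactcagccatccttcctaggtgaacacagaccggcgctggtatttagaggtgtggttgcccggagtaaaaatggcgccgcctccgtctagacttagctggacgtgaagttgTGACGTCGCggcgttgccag
Psmb6: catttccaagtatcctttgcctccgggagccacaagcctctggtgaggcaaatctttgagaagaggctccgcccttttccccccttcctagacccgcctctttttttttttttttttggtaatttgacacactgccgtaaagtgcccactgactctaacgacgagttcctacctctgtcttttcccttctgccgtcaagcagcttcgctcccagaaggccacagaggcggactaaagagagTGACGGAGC
Psmb10: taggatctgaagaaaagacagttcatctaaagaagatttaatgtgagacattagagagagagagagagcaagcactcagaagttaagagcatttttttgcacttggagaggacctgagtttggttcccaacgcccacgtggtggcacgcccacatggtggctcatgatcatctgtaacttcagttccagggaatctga

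The core of the interferon-stimulated element, GAAANNGAA, was present in 3 of the 40 windows (7.5%), those of Psmb3, Psmd4 and Psmd9, against 8.18% of all genes. The windows of Psmb8 and Psmb9 are not printed. None of the motifs chosen for marking lay in their longest stretch free of annotated exons, and Psmb10, which also held none, was printed by choice. The window of Psmb8 held a motif chosen for marking outside that stretch, while that of Psmb9 held none. The motif with the widest gap between members and all genes among those reported was the ETS site CCGGAAG, in 12 of the 40 (30%) against 7.83%, and the GC box GGGCGG followed with 55% against 35.4%. The others were the NF-kB site GGGNNNNNCC (57.5% against 48.7%), the CCAAT box CCAAT (35% against 37.5%) and the E-box CACGTG (10% against 6.86%), and letters of different motifs may overlap. The windows of the members held a median of 14.5 CpG dinucleotides against 6 in all genes, so the members' windows also differ in base composition. The ETS site was found in the ATPase genes Psmc1, Psmc2 and Psmc6, in Psmd2, Psmd4, Psmd6, Psmd11 and Psmd12 of the regulatory particle, in Psma6, Psme3, Psme4 and Psmg1, and in no catalytic gene that has a window. Stretches with that site in capitals, on either strand, are given for Psma6 (chr12:55398675-55398717), Psmd2 (chr16:20651608-20651650), Psmd11 (chr11:80428586-80428614) and Psme3 (chr11:101316088-101316130), all on the plus strand. The site of Psma6 lies in window 2 of that gene, and window 1 did not hold it. A match is a description of the letters and not evidence that a factor binds, and a window without a match says only that these letters are not in it.
Psma6: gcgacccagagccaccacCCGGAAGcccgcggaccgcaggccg
Psmd2: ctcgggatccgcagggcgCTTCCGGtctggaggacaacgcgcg
Psmd11: aggaacgcgagggcgggtCTTCCGGgtgt
Psme3: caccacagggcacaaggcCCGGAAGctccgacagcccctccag

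The alpha ring, which gates the entry to the barrel, was the most even of the larger groups. Its 7 genes ranged from a mean of 65.1 TPM for Psma5 to 118 TPM for Psma7, a spread of 1.81-fold. Psma7 stood at 129 and 106 TPM in replicates 1 and 2, and Psma2 at 112 and 92.4 TPM. The other 5, Psma1, Psma3, Psma4, Psma5 and Psma6, had means between 65.1 and 75.6 TPM with SDs of 7.43 to 16.7 TPM, and Psma5 was the lowest of them in both libraries with bounds apart from the rest, while the other 4 did not keep the same order. The structural beta subunits, which complete the inner rings and carry no active site, were less even. Psmb3 was 3.64 times Psmb2 in replicate 1 and 3.84 times in replicate 2, although the barrel holds them in equal number. Psmb4 was at 164 and 132 TPM, Psmb1 at 83.8 and 81.0 TPM and Psmb2 at 64.2 and 53.7 TPM.

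The 6 ATPases of the regulatory particle, which form its motor ring, ranged over 2.35-fold in mean level. Psmc5 was the highest at 83.0 and 59.8 TPM in replicates 1 and 2. Psmc3 was at 69.6 and 52.0 TPM, Psmc4 at 69.6 and 53.4 TPM, and Psmc1 at 68.9 and 49.4 TPM. Psmc2 was at 38.8 and 27.5 TPM and Psmc6 at 34.8 and 26.0 TPM, so that 4 of the genes formed an upper group and 2 a lower one in each library, and the credibility bounds of the 2 groups did not overlap within a library. Among the other base subunits Psmd2, which receives ubiquitin shuttle proteins, was at 96.6 and 79.1 TPM. Psmd4, a ubiquitin receptor, was at 66.7 and 62.1 TPM, and the scaffold subunit Psmd1 was at 31.1 and 20.99 TPM.

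In the lid, Psmd8 and Psmd3 stood above the other subunits. Psmd8 stood at 74.3 and 76.9 TPM in replicates 1 and 2, and Psmd3 at 81.2 and 69.4 TPM. Psmd14, the deubiquitinase of the lid, was at 47.4 and 38.0 TPM. The other 5, Psmd6, Psmd7, Psmd11, Psmd12 and Psmd13, had means from 28.4 to 36.9 TPM. The lid subunit Sem1, which the naming rule does not cover, was at 46.5 and 46.2 TPM.

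The activators bind the core in place of the regulatory particle, and the 2 subunits of the PA28 ring were far above the others. Psme2 stood at 148 and 159 TPM in replicates 1 and 2, and Psme1 at 70.0 and 78.0 TPM. The ratio of Psme1 to Psme2 was 0.471 and 0.491. Psme3, the nuclear member of this family, was at 26.0 and 20.7 TPM, and Psme4, which encodes the large activator PA200, at 8.72 and 7.32 TPM. Psme1 and Psme2 were higher in replicate 2 and Psme3 and Psme4 lower, with credibility bounds that did not overlap between the libraries for any of the 4.

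Psme2b, on chromosome 11 (chr11:48945354-48946190), is a near-identical copy of Psme2, which lies on chromosome 14. It was at 5.67 and 7.98 TPM in replicates 1 and 2, or 3.82% and 5.02% of Psme2. The coding sequences differed at 5 of 717 bases (99.3% identity) with a longest identical run of 311 bases, so reads can be shared and the split between the genes is uncertain. Psme2b had 425 expected counts in replicate 1 and 647 in replicate 2, and both genes had a fractional count in replicate 1. The stretch of coding bases 424 to 543, counted from the start codon in transcripts of GENCODE M21, holds 3 of the differing bases, which are in capitals.
Psme2: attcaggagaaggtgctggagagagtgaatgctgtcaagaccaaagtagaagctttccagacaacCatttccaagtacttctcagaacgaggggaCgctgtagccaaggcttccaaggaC
Psme2b: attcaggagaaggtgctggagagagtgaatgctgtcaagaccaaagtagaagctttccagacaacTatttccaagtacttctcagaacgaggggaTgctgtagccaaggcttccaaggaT

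The chaperones that build the core particle act in 2 dimers. Psmg1 stood at 35.3 and 32.1 TPM in replicates 1 and 2, and its partner Psmg2 at 17.3 and 17.5 TPM. Psmg3 was at 14.5 and 10.4 TPM and its partner Psmg4 at 47.9 and 56.1 TPM, so the partners were unequal in both dimers. Pomp, which matures the half-built core and is not covered by the naming rule, was at 72.1 and 53.4 TPM. Of the chaperones of the base, Psmd5 was at 17.0 and 13.8 TPM, Psmd10 at 11.6 and 11.5 TPM and Psmd9 at 5.76 and 5.27 TPM.

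Most members were read mainly as 1 transcript. The leading transcript held a median of 96.5% of the gene's TPM over the 46 detected members, all 46 transcripts that led by mean share of TPM were annotated as protein coding, and 33 members had a single transcript at 10% or more. The other 13 were Psma3, Psmb4, Psmb6, Psmb8, Psmb9, Psmc3, Psmd4, Psmd10, Psmd11, Psmd13, Psme1, Psmg3 and Psmg4. Of these, 3 carried a retained intron at 10% or more in both libraries. Psma3-203 held 43.1% of Psma3 in replicate 1 and 42.8% in replicate 2, close to the 45.1% and 42.7% of the coding Psma3-204, and by expected counts it held more than Psma3-204 in both libraries. Psmb4-202 held 20.0% and 23.0% of Psmb4, and Psmb6-202 held 14.7% and 13.0% of Psmb6. A further retained intron transcript, Psmb4-203, held 13.7% and 8.31% of Psmb4.

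In 6 further members, and in Psmb8 as described below, the second transcript was annotated as protein coding. Psmd4-201 held 34.2% of Psmd4 in replicate 1 and 33.6% in replicate 2, beside Psmd4-202 with 59.3% and 57.9%. Psmg3-202 held 37.3% and 31.6% of Psmg3, and Psmg4-201 held 29.6% and 25.0% of Psmg4. Lower shares were those of Psmd10-202, with 17.98% and 20.2%, Psmd11-201, with 17.9% and 19.7%, and Psmc3-210, with 11.7% and 12.7%. None of these 6 led its gene.

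Psmb8 was divided between Psmb8-203, of 815 bases, with 68.3% and 69.1% of its TPM, and Psmb8-201, of 1628 bases, with 29.9% and 29.4%. By expected counts they were nearly equal, at 48.8% and 49.5% against 47.8% and 47.5%, since TPM divides by length. The TPM of Psmb8 and its ratio to Psmb5 rest on this division. How far another division would move them was not tested. Psmb9 differed between the libraries. Its short transcript Psmb9-202, of 433 bases, was at 23.0 and 2.47 TPM in replicates 1 and 2, from 698 and 79.7 expected counts, with bounds of 19.2 to 26.5 and 0 to 5.55 TPM that did not overlap. Its main transcript Psmb9-204 was at 81.8 and 79.4 TPM. The share of Psmb9-202 was 19.2% in replicate 1 and 2.67% in replicate 2, as the plot of transcript shares shows. In the same way Psmd13-211, annotated for nonsense-mediated decay, held 5.85% of Psmd13 in replicate 1 and 14.1% in replicate 2, and the retained intron transcript Psme1-207 held 5.57% and 12.1% of Psme1.

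**Figure D3:**
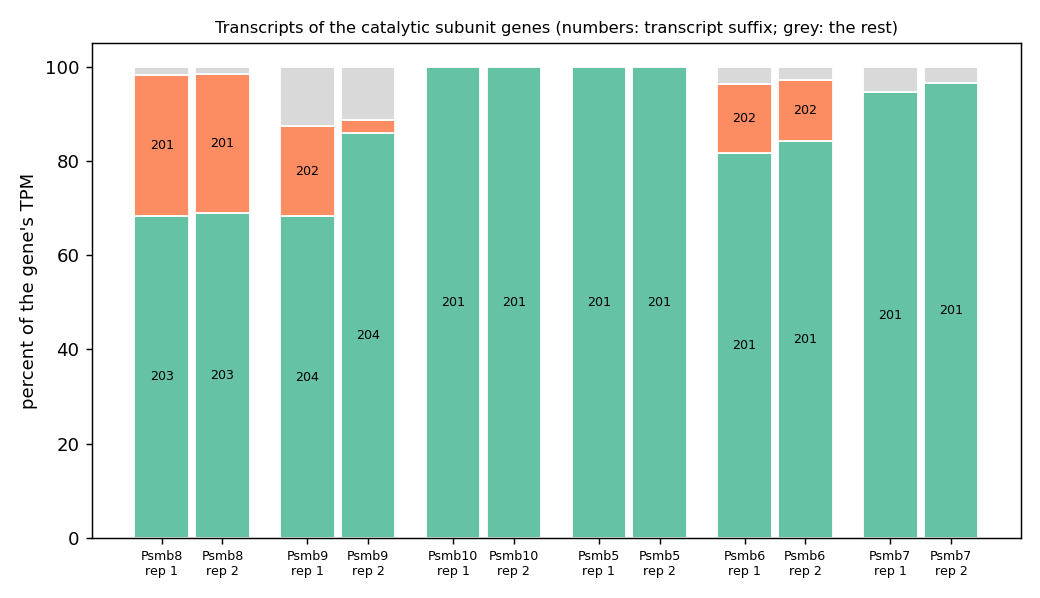
Percent of each catalytic gene's TPM held by its transcripts in replicate 1 and replicate 2, with transcripts of 10% or more in either library in colour, marked by the last part of their name, and the rest in grey. Psmb9-202 holds 19.2% in replicate 1 and 2.67% in replicate 2, while the division of Psmb8 is nearly the same in both.

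The libraries were then compared gene by gene. The test was exact and binomial, two-sided and conditional on each gene's summed rounded counts, with sizes scaled by TMM (an edgeR scaling) and p-values adjusted by Benjamini-Hochberg over all 15438 genes tested. This test covers counting error only, compares these 2 libraries and not conditions, and nothing in the labels says how the cultures were kept. No member of the 46 tested passed with a ratio of at least 2, against 4.77% of all genes, and none did with DESeq2 size factors or library totals. Of the 9567 tested genes that were detected in both libraries, only 91 passed with that ratio. Passing with it was thus rare among detected genes, and its absence is no particular trait of the members. Without the ratio, 35 members were lower in replicate 2, against 25.1% of all genes, and 5 were higher, against 25.2%. Members are well counted, and among the 8181 genes with at least as many summed counts as the least counted detected member, 40.7% were lower and 29.7% higher, against 76.1% and 10.9% of the members. By TPM, 40 members were lower and 6 higher, beside 5418 lower and 4109 higher of the 9571 detected genes. The credibility bounds were apart for 35 of the lower and 4 of the higher members and overlapped for 7. Bounds were not compared over all genes, so these counts do not set the members apart from other genes. With library totals in place of TMM, 39 members were lower and 4 higher, against 33.3% and 18.6% of all genes.

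The median log2 ratio of TPM, replicate 2 to replicate 1 with a pseudocount of 0.1, was -0.26 over the members, against -0.04 over the 9851 genes with a mean of at least 1 TPM. All 6 ATPases were lower in replicate 2, with a median of -0.45 and a range of -0.50 to -0.38. All 7 alpha ring genes were lower, with a median of -0.28. So were the 3 immunoproteasome genes, with a median of -0.27 by TPM and -0.16 by counts. The constitutive catalytic genes had medians of -0.03 and -0.02, and only Psmb7 passed the test. The log2 count ratio of Psmb7, -0.20, was further below 0 than those of Psmb8, -0.16, and Psmb9, -0.12, so the 2 groups overlapped. With library totals in place of TMM, Psmb5 and Psmb6 were lower past the test too. The lid was lower in 7 of 8 genes. The spread by role is shown in the plot of log2 ratios. Within the members this log2 ratio had a Spearman correlation of -0.40 with effective length, against 0.06 over the 8895 detected protein-coding genes, as a description across genes. The part that library preparation played in these differences was not tested.

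**Figure D4:**
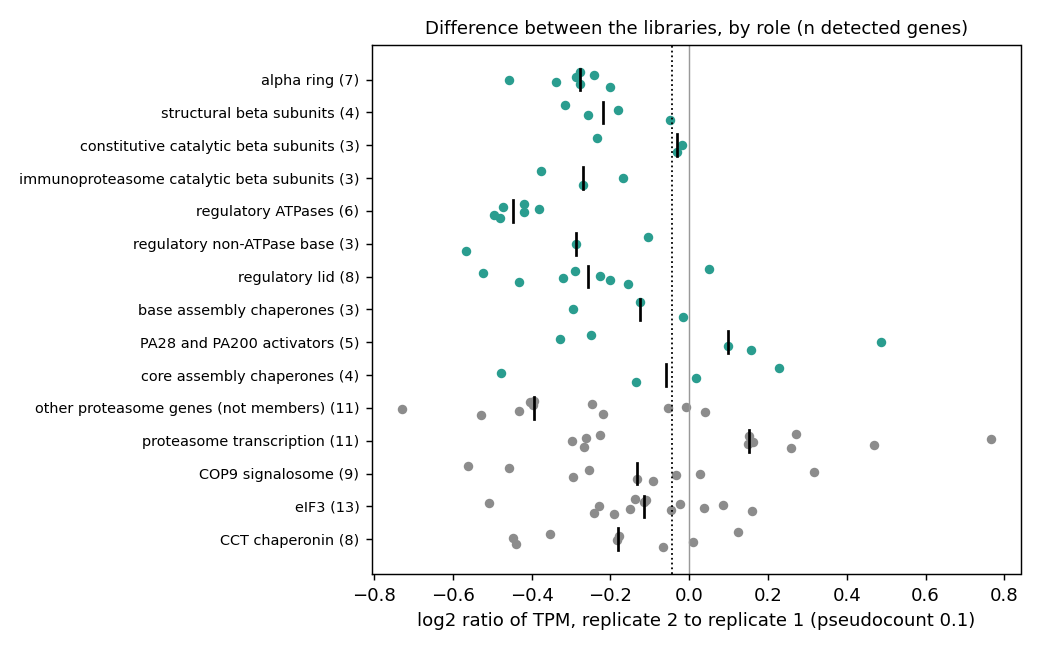
log2 ratio of TPM in replicate 2 to replicate 1 for each detected gene, by role for the proteasome genes (green) and by list for other genes (grey), with the number of genes in brackets, black bars for medians, a solid line at 0 and a dotted line at the median of all genes, -0.04. The ATPases lie between -0.50 and -0.38, and the activators lie on both sides of 0.

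Among the members lower in replicate 2 the largest difference was that of the scaffold Psmd1, whose log2 count ratio was -0.57 with a 95% counting interval of -0.61 to -0.52 (adjusted p = 2.71e-144, exact binomial test). The lid subunit Psmd6 followed at -0.51 and the ATPase Psmc2 at -0.48. For Psmb8 the log2 count ratio was -0.16, and for Psmb10 it was -0.25, both past the test. For Psmb9 the log2 count ratio was -0.12 but the log2 ratio of TPM was -0.38, and Psmb9-202 is the transcript that differed between the libraries. The genes Psmb1, Psmb5, Psmb6, Psmd9, Psmd10 and Psmg2 did not pass. For Psmb5 the log2 count ratio was -0.02 with an interval of -0.06 to 0.03, and for Psmb6 0.00335 with an interval of -0.03 to 0.04.

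The 5 members higher in replicate 2 were the activators Psme1, Psme2 and Psme2b, the chaperone Psmg4 and the lid subunit Psmd8. Psme2 had a log2 count ratio of 0.13 (0.09 to 0.16, adjusted p = 1.27e-11, exact binomial test) and Psme1 of 0.14. Psmg4 had 0.25 and Psme2b 0.51, the latter with the uncertainty of shared reads. For Psmd8 it was 0.07, and with library totals it was -0.01 and no longer past the test.

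Genes that work with the proteasome but fall outside the naming rule were taken from lists of their own. Of 15 further symbols listed with the proteasome, some of them other names of the same gene, 11 were matched and detected. Of these 11 genes, 9 were lower in replicate 2 and none higher, against 25.1% and 25.2% of all genes tested, with a median log2 ratio of -0.39. The 9 include Psmc3ip, a recombination factor and not a proteasome subunit, which had the lowest log2 count ratio of the list, -0.66. Pomp had a log2 count ratio of -0.42 and the ubiquitin receptor Adrm1, at 39.9 and 27.7 TPM in replicates 1 and 2, of -0.50. Txnl1, a redox protein of the regulatory particle, was at 23.8 and 18.1 TPM. Sem1 and Ecpas, a proteasome adaptor at 10.2 and 10.5 TPM, did not pass, and the inhibitor Psmf1 was at 7.68 and 7.40 TPM. The ligase Ube3c was the lowest, at 4.91 and 4.12 TPM, and Akirin2, which brings proteasomes into the nucleus, was at 8.49 and 7.28 TPM.

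Of 12 regulators of proteasome gene transcription, 11 were detected, with 6 higher and 4 lower in replicate 2, against 25.2% and 25.1% of all genes tested. Nfe2l1, the factor that raises proteasome genes when the proteasome is impaired, was at 27.6 and 47.0 TPM in replicates 1 and 2, a log2 count ratio of 0.64. Irf1 was at 11.2 and 15.6 TPM, higher in replicate 2. Nlrc5, the transactivator of MHC class I genes, was at 12.7 and 10.8 TPM and lower. The lowest were Irf2, at 0.88 and 0.91 TPM, Nfe2l2 at 3.34 and 2.77 TPM, Bach1 at 2.86 and 3.44 TPM and Ngly1 at 3.15 and 3.51 TPM. The regulators thus differed in both directions between the 2 libraries, and any link between their levels and those of the members was not tested.

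Ubiquitin itself was read at high levels. The ribosomal fusion gene Rps27a stood at 635 and 643 TPM in replicates 1 and 2, and the polyubiquitin gene Ubb at 500 and 509 TPM. Of the 14 matched genes of the list of ubiquitin and its delivery 13 were detected, and Ubqln2, a shuttle protein, had 0 TPM in both libraries. The next lowest were Ddi2, the protease that activates Nfe2l1, at 6.31 and 5.23 TPM, Ubqln4 at 11.5 and 9.62 TPM and Ufd1 at 14.4 and 11.4 TPM. On the side of peptide presentation all 9 genes were detected, 5 of them higher and 3 lower in replicate 2, against the same 25.2% and 25.1% of all genes. B2m was at 356 and 361 TPM, H2-D1 at 196 and 223 TPM and H2-K1 at 190 and 218 TPM, and the loading chaperone Calr at 179 and 94.6 TPM. Tap1, which overlaps Psmb9, was at 37.8 and 39.5 TPM, Tap2 at 28.0 and 26.4 TPM and Tapbp at 27.7 and 33.0 TPM. Pdia3 was at 21.6 and 13.2 TPM and the peptide-trimming Erap1 at 11.8 and 10.7 TPM.

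Other multi-subunit complexes were set beside the proteasome in the same comparison. The COP9 signalosome, a relative of the lid, had a median log2 ratio of -0.13 with 7 of 9 genes lower and 1 higher past the test. The translation factor eIF3 had -0.11 with 8 of 13 lower and 3 higher, and the CCT chaperonin had -0.18 with 6 of 8 lower and 1 higher. These medians lie between those of all genes and of the members, and no test of the difference between complexes was made. By counts the medians were -0.20 for COP9, -0.10 for eIF3 and -0.16 for CCT, against -0.22 for the members. Of the 46 members tested, 35 were lower and 5 higher past the test. A majority of genes lower past the test was thus not particular to the members. Beside these counts, 25.1% of all genes tested were lower and 25.2% higher past the test. Of the 8181 well-counted genes 40.7% were lower and 29.7% higher.

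The labelled cell type was checked against its markers. All 6 B cell markers were detected, among them Cd74 at 496 and 516 TPM in replicates 1 and 2 and Cd79b at 121 and 125 TPM. The 4 T cell markers summed to 1.22 and 1.55 TPM, nearly all from Cd3d, with Cd3e at 0. Those of myeloid cells summed to 0.33 and 0.32 TPM, of erythroid cells to 0.30 and 0.19 TPM and of male germ cells to 0.02 and 0.03 TPM. For thymic cortical epithelium, the cells of Psmb11, the sum was 0.94 and 0.93 TPM. Most of it came from Ccl25, at 0.84 and 0.77 TPM, below the 1 TPM used for detection, and Foxn1 was at 0.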

How the data were processed

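Total RNA-seq tables of 2 CH12.LX libraries were used. The authors deposited expected counts (estimates for genes and transcripts, per the file headers) on mm10 and annotation releases M2, M3 and M4, per the labels and library manifests. The deposited TPM and FPKM values are named so per the file headers, which also give percent values of a transcript in its gene and the other deposited columns, lower and upper credibility bounds of TPM, whose level is not stated. Not given in the sources used here were the aligner, the quantifier and the counting strand. FPKM, posterior mean TPM, M2 and M3 served as alternatives. Rows that name no gene held 5.68e-05% of counts in replicate 1 and 5.36e-05% in replicate 2 and were left out.

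Symbols, types and coordinates came from GENCODE M21, matched for 42462 of 43346 genes. Gene levels are TPM, mean ± SD over 2 libraries. Expected counts were rounded and genes with at least 10 summed counts were compared by a two-sided exact conditional binomial test with TMM sizes (edgeR 4.0.16, R 4.3.3; DESeq2 1.42.0 size factors as an alternative), Benjamini-Hochberg adjusted over all genes at 0.05. The test was run on simulated counts with counting error only, the error it assumes. That run says nothing about spread beyond counting error. An edgeR fit was not used because a single library on each side leaves no residual degrees of freedom. Its p-values measure counting error between these libraries, not biological spread. Coding sequences were aligned with Biopython 1.88, and other steps ran in Python 3.11.15 with scipy 1.17.1. Coding sequences came from GENCODE M21 transcripts and promoter windows from RefSeq on GRCm38.p6.

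The members and lists were chosen with earlier results of these data known. Every member is named, with up to 4 highest and 4 lowest genes by mean TPM of each other list and transcripts of at least 10% of a member with a second such transcript. Tap1 was named beyond this rule for its overlap with Psmb9, and Psmc3ip because it is not a proteasome subunit. The motifs, the aligned pairs and the well-counted background were chosen after the tables were seen. Some genes of these lists and a motif that was searched are not reported here.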

Additional observations from a re-analysis of the deposited data

How the results depend on the processing

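The number of detected members was 46 under each annotation release, unit and rescaling tried and in either library alone, and 43 at 10 TPM. The median TPM of detected members, 61.1 TPM as the mean of both libraries, was 135 on the FPKM scale and 251 TPM when rescaled to protein-coding genes, by the construction of those scales. The immunoproteasome share, the 3 catalytic ratios and the median log2 ratio moved by less than the spread between libraries, or by less than 0.1 for the log2 ratio. For the share and the ratios, FPKM and leaving out 1 library could not move them further, by construction. The number of genes called, 737, became 1685 at a ratio of 1.5 and 7779 with no ratio, by construction. With library totals, 2869 genes were higher and 5141 lower past the test, against 3898 and 3881 with TMM. This alternative and DESeq2 size factors were added after the data were seen for the count of members. The log2 count ratio of Psmb6 became -0.00512 with DESeq2 size factors and -0.0811 with library totals, that of Psmd10 -0.00306 and -0.0790, and with library totals that of Psmg2 -0.0480 and that of Psmd8 -0.0117. Library totals also put Psmb1, Psmb5, Psmb6 and Psmd9 past the test, all lower in replicate 2, and took Psmd8 out. Of 108 alternative values of transcript shares, 21 moved by more than the spread between libraries. No paired analysis was possible because both libraries belong to 1 group. With 1 library on each side, differences between cultures and between library preparations cannot be told apart.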
